A study of Homo sapiens with 4 samples.

Results

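The genes described here lie in a block of chromosome 11q23 that runs from PIH1D2 to SORL1 and holds the adhesion genes MPZL2 and MCAM. The 58 members were listed by symbol as genes of that block once many genes there had been seen to be lower in the FOXC1 arrays, with MPZL2 and MCAM set apart for the size of their difference. The FOXC1 against vector values therefore chose the members, and those values are given below as a description. The series holds no second contrast in which the members could be tested. Of the 58 members, 57 had a probe set of their own, among 18417 genes measured in all, and each gene was read from its brightest probe set with 1 gene symbol. The exception was FXYD2, whose only probe set is shared with the readthrough transcript FXYD6-FXYD2, so that no value is given for it. By the gene table, 56 of the 57 lie between PIH1D2 and SORL1. IL18BP, which encodes a secreted protein that binds the cytokine interleukin 18, lies elsewhere on chromosome 11, although the IL18 gene itself is in the interval.

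The samples were 2 cultures of MDA-MB-231, a basal-like, mesenchymal line from a human breast carcinoma, that had been transfected with a FOXC1 plasmid, and 2 cultures of the same line transfected with the vector. All 4 were grown in DMEM with 10% fetal bovine serum and antibiotics, and a lipid reagent (Lipo2000) delivered the plasmids. RNA of each was hybridised to an Affymetrix whole-transcript gene array, and the values are linear PLIER signals. The labels call the arrays of a group biological replicates. The sources used here do not say whether transfection was transient or stable, or whether pools or clones were used. FOXC1 itself was not analysed here, so its level was not used to check the labels. The median signal per array was between 489 and 512. Of 10 markers chosen for the line and for mesenchymal-like cells, 9 lay above the 50th percentile of signal (782), with SPARC below the 25th percentile (277). Of these 10, 5 were called lower and 2 higher, where a call is defined below. Of all genes 15.5% were called lower and 15.9% higher, or 23.3% and 23.9% of those above the 50th percentile. Of 10 luminal breast markers 5 lay above the 50th percentile, and 4 were called lower and 0 higher, namely GATA3 (log2 -0.17), KRT8 (-0.28), KRT18 (-0.22) and KRT19 (-0.24). The summed luminal signal was 22264 and 21872 in FOXC1 cells and 25507 and 26024 in vector cells, and its part in the members' values was not tested. PGR, the progesterone receptor, read 107 and 96.8 in FOXC1 cells and 96.8 and 89.8 in vector cells. Of 9 leukocyte markers 0 lay above the 50th percentile, and their summed signal was 2900 and 3114 in FOXC1 cells and 2901 and 2942 in vector cells, with PTPRC called higher (log2 0.47).

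FOXC1 is a forkhead transcription factor known in breast cancer as a marker of the basal-like subtype. The block at 11q23 is gene dense and mixes housekeeping genes of the secretory pathway, RNA processing and ubiquitin transfer with genes restricted to neurons, T cells or epithelia. It also holds a set of immunoglobulin-type adhesion genes. MPZL2 is a small homophilic adhesion protein of epithelia, and MCAM (CD146) is an adhesion receptor of endothelium and melanoma that is also found on basal-like breast cancer cells.

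Across the block most members were slightly lower in FOXC1 cells, and MPZL2 and MCAM were far lower. Of the 57 measured members, 35 were called lower and 1 higher, where a call means a limma adjusted p of 0.05 over all probe sets with a gene symbol. Of all genes 15.5% were called lower and 15.9% higher, or 31.4% in either direction, and nothing is read from the members' count because the same contrast chose them. The median log2 difference of the members was -0.22, so that the middle member stood at 85.8% of its vector level on the scale of signal + 16, on which all log2 values and percentages of vector are given. The median over all genes was 0.03. Without MPZL2 and MCAM, the median of the other 55 members was -0.19, and these 55 ranged from -0.70 for NNMT to 0.23 for IL10RA. Among the members called lower, leaving out the same pair, the median was -0.34 with quartiles at -0.41 and -0.26. Both FOXC1 arrays lay below both vector arrays in 39 members and above them in 8, against 26.4% and 37.1% of all genes. An array of pooled RNA cannot tell a lower level in every cell from a loss in some of the cells.

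**Figure D1:**
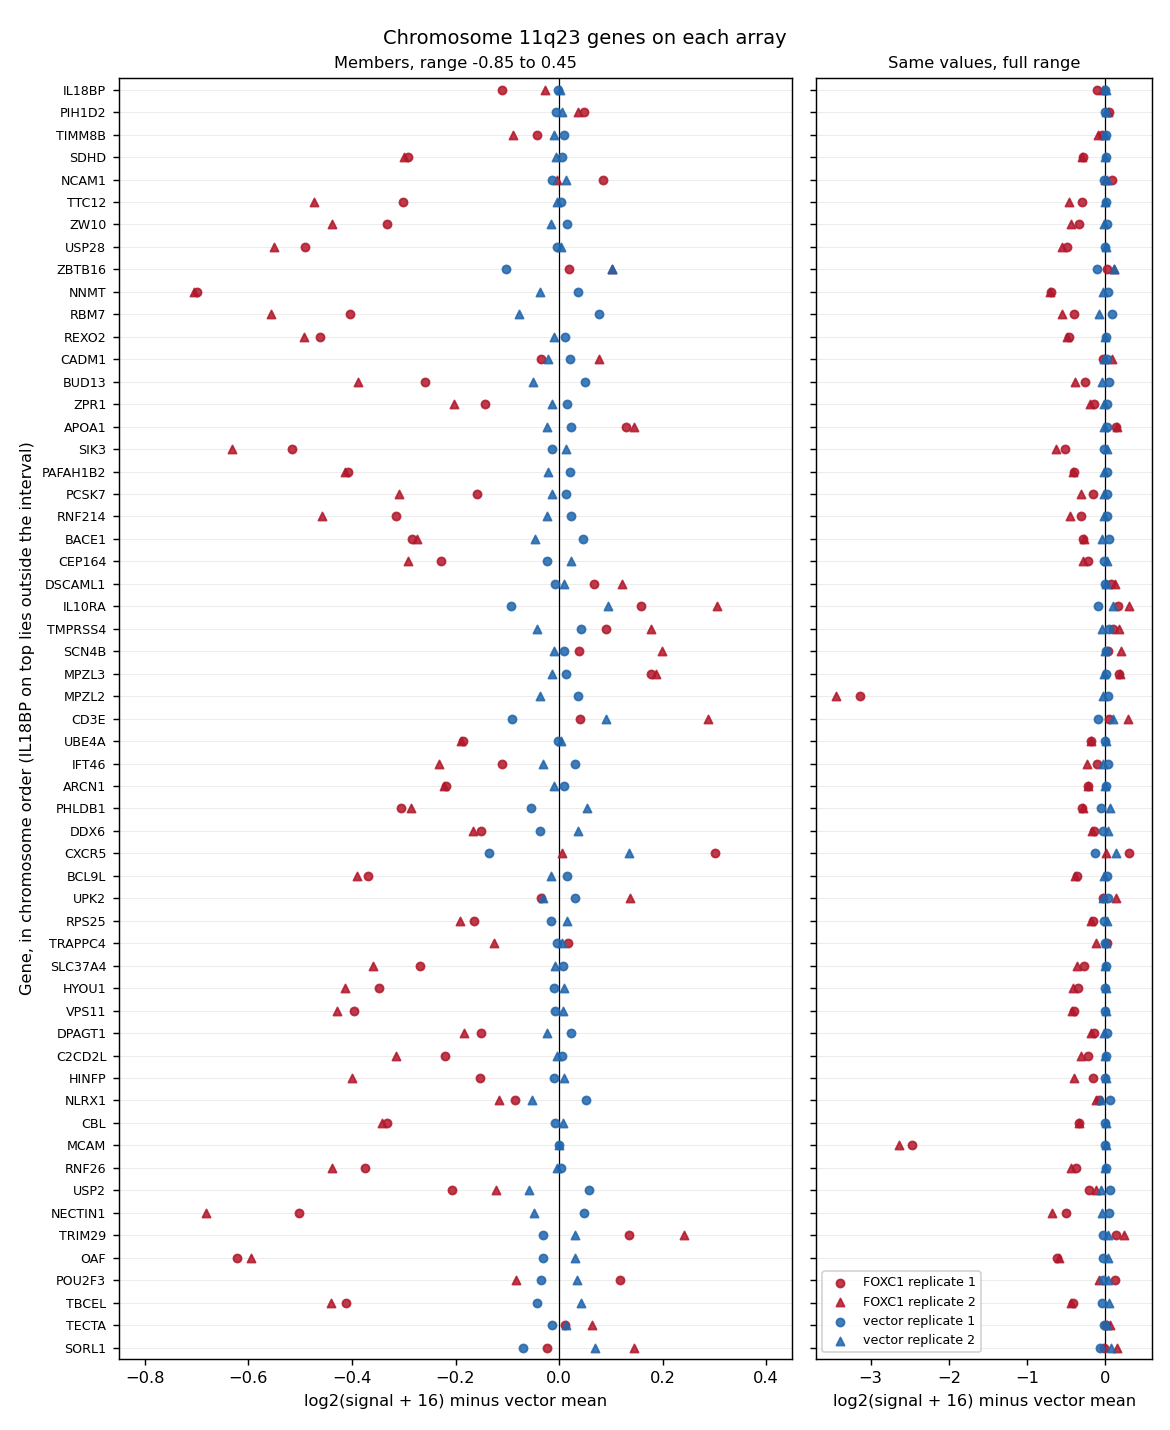
Each row is a measured member in chromosome order, with IL18BP, which lies outside the interval, on top. Points give log2(signal + 16) on each array minus the vector mean of that gene, red for the 2 FOXC1 arrays and blue for the 2 vector arrays, on a narrow range at left and the full range at right. Most rows have both red points left of the blue ones by a small distance, rows such as TECTA and SORL1 have them mixed, and MPZL2 and MCAM stand far to the left.

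Most of the lower members had a bright probe set, and few of the dim ones were called. Of 36 members above the 50th percentile of signal 32 were called lower, against 23.3% of all genes in that range. Leaving out MCAM, the 35 others had a median log2 difference of -0.31. Their median on the single arrays, relative to the vector mean, was -0.29 and -0.36 in the FOXC1 arrays and 0.00 in both vector arrays. The 4 bright members that were not called lower were TIMM8B (log2 -0.07), IL18BP (-0.07), TRAPPC4 (-0.05) and MPZL3, which was the member called higher (0.18). Of 21 members at or below the 50th percentile 3 were called lower, namely MPZL2, NECTIN1 and CEP164, and 0 higher, against 7.43% and 7.64% of all genes in that range. Without MPZL2, the 20 dim members had a median of 0.05, which is close to the median of 0.06 over all dim genes. Signal also depends on the probes of a probe set, so the bands do not rank the transcripts by abundance.

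**Figure D2:**
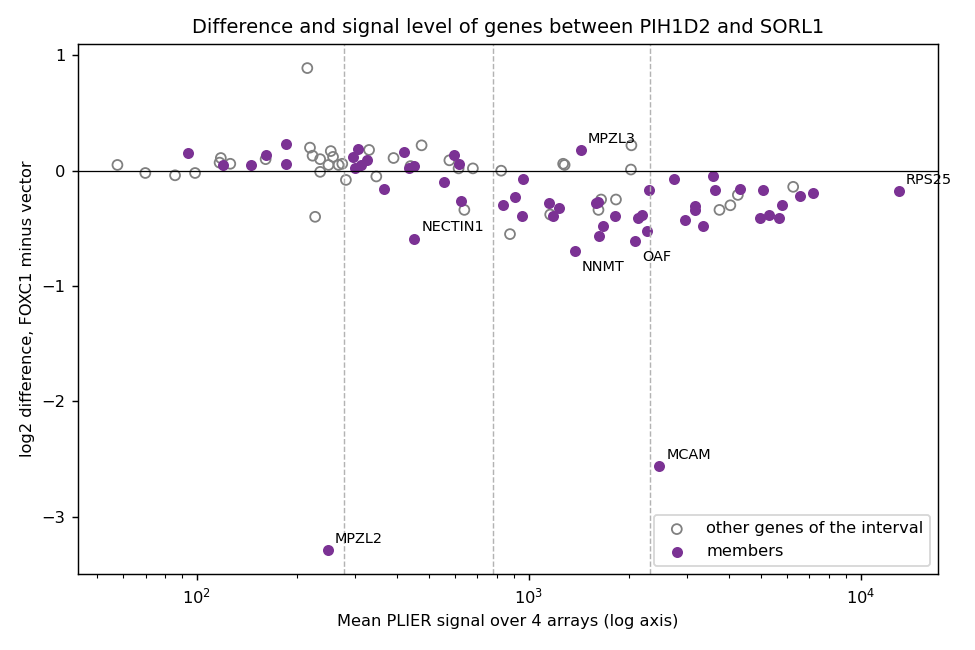
The mean signal over the 4 arrays (x, log axis) is set against the log2 difference of FOXC1 minus vector (y) for the 57 members (filled) and for 43 other measured genes between PIH1D2 and SORL1 (open). Dashed lines mark the 25th, 50th and 75th percentile of signal over all probe sets with a symbol. Left of the middle line most points sit near 0, right of it most lie below 0, and MPZL2 and MCAM lie below all others.

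MPZL2 had signals of 38.5 and 27.9 in FOXC1 cells and 474 and 450 in vector cells. The groups are far apart, and the FOXC1 signals are close to the bottom of the array's range. The log2 difference was -3.29 ± 0.12 (SE), and relative to the median of the members it was -3.07. The offset of 16 is not small beside these FOXC1 signals, and the difference became -3.78 when 1 was added and -2.44 when 64 was added. Its size relative to other genes therefore depends on the offset, and with 64 it was no longer beyond that of MCAM. The genes beside MPZL2 had no difference of that size. MPZL3, the neighbouring gene of the same myelin protein zero-like family, had signals of 1518 and 1527 in FOXC1 cells and 1352 and 1328 in vector cells. Its FOXC1 arrays both lay above its vector arrays (log2 0.18 ± 0.05 SE), and the call was lost without vector replicate 2. On the other side, CD3E, a T cell receptor chain gene, had signals of 406 and 485 in FOXC1 cells and 369 and 421 in vector cells, which overlap. The nearest bright gene on that side was UBE4A, a ubiquitin chain elongation factor, at 6736 and 6714 in FOXC1 cells and 7643 and 7674 in vector cells, or 87.8% of vector.

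MCAM had signals of 751 and 664 in FOXC1 cells and 4234 and 4237 in vector cells. It was bright in vector cells, so that its log2 difference of -2.56 ± 0.05 (SE) hardly moved with the offset (-2.58 when 1 was added and -2.48 when 64 was). Its rank from the lowest difference was 12 among all genes, and relative to the median of the members it was -2.34. Both direct neighbours of MCAM were lower by about the amount of the bright members. CBL, a ubiquitin ligase that acts on receptor tyrosine kinases, had 2810 and 2791 in FOXC1 cells and 3523 and 3562 in vector cells, or 79.2% of vector. RNF26, a ubiquitin ligase of the endoplasmic reticulum, had 4379 and 4186 in FOXC1 cells and 5698 and 5667 in vector cells, or 75.4% of vector.

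**Figure D3:**
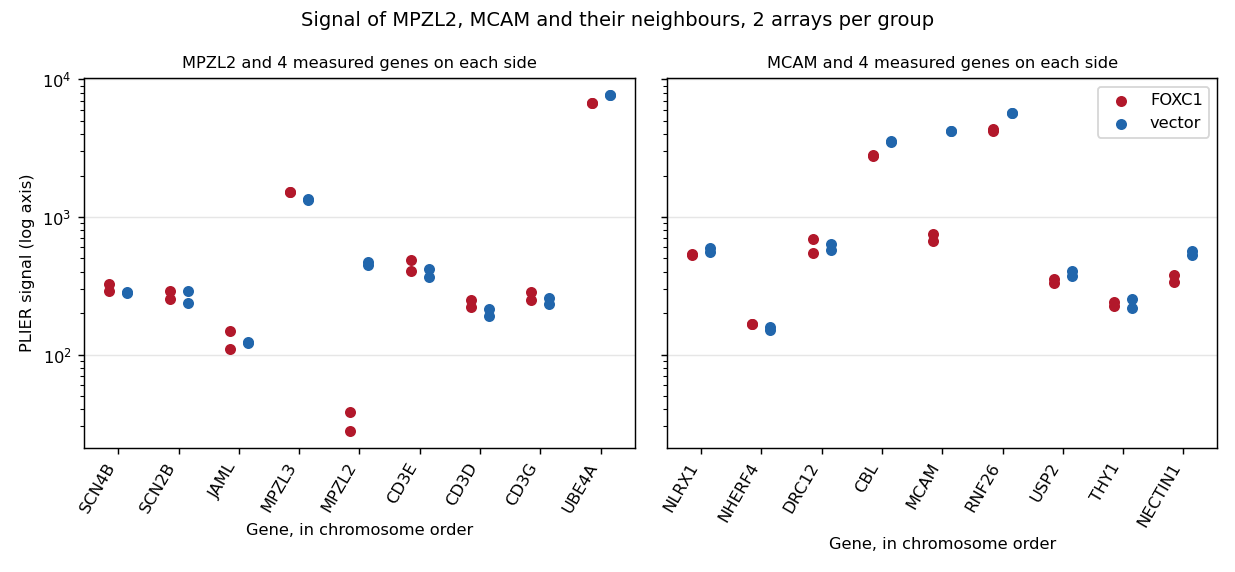
PLIER signal (log axis) of MPZL2 (left) and MCAM (right), each with the 4 measured genes on either side in chromosome order. Red points are the 2 FOXC1 arrays and blue points the 2 vector arrays. MPZL2 drops to between 27.9 and 38.5 in FOXC1 cells and MCAM to between 664 and 751, while no other gene shown differs by more than NECTIN1, the last gene at right, at 66.3% of vector.

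The start regions of MCAM and of its neighbour RNF26 are printed because these genes are adjacent and MCAM is far the lower of the pair relative to vector. Each is 300 bases of RefSeq sequence in GRCh38.p14, with 250 bases before the start of the gene and 50 after it, on the gene's own strand. MCAM is chr11:119317081-119317380 on the minus strand, and RNF26 is chr11:119334277-119334576 on the plus strand. Capitals in MCAM mark TGACGTCA, the full cAMP response element, whose letters were searched for after the sequence had been read, and capitals in RNF26 mark a forkhead core, GTAAATA.
MCAM: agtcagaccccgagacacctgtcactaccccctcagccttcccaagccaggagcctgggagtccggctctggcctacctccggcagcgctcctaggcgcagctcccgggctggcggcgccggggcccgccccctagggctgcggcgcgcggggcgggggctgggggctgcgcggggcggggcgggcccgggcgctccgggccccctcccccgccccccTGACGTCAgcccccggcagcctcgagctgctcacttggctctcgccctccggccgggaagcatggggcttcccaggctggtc
RNF26: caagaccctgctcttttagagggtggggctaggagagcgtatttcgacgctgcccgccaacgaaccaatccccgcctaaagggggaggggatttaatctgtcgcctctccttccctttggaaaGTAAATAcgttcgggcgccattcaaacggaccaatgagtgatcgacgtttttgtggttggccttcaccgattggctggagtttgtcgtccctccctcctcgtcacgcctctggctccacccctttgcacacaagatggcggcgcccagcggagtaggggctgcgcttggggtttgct
The MCAM window is 78.0% G and C with 29 CG pairs, and the RNF26 window is 57.7% G and C with 21. The forkhead cores searched, on both strands, were GTAAACA, then the core marked above, then ATAAACA, and also the variant GCAAACA. None of these letters is in the MCAM window. Of 39 members with a promoter in the RefSeq table, 6 held a forkhead core (SDHD, REXO2, IL10RA, SCN4B, IFT46 and RNF26), or 15.4%, against 15.7% of 27305 genes in the table. Of the 29 of them that were called lower 4 held one, and TGACGTCA was in 1 of the 39, against 2.25% of all genes. The members with no entry were TIMM8B, NCAM1, ZBTB16, NNMT, CADM1, APOA1, DSCAML1, FXYD2, TMPRSS4, MPZL3, MPZL2, CD3E, BCL9L, UPK2, CBL, NECTIN1, TRIM29, OAF and POU2F3.

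Besides MPZL2 and MCAM, 5 members differed by 0.5 or more on the log2 scale, all downwards, where 2.83% of all genes were lower and 1.23% higher by as much. NNMT, which methylates nicotinamide with S-adenosylmethionine, had signals of 1044 and 1040 in FOXC1 cells and 1750 and 1663 in vector cells (log2 -0.70 ± 0.05 SE). OAF, a homologue of the fly gene out at first, had 1636 and 1668 in FOXC1 cells and 2475 and 2582 in vector cells (log2 -0.61 ± 0.04 SE). In both genes the groups are separated by several times the distance between arrays of a group. NECTIN1, an adhesion protein of adherens junctions, had 380 and 334 in FOXC1 cells and 564 and 527 in vector cells (log2 -0.59 ± 0.08 SE). SIK3, a salt-inducible kinase of the AMPK family, had 1360 and 1253 in FOXC1 cells and 1932 and 1969 in vector cells (log2 -0.57 ± 0.05 SE). USP28, a deubiquitinase that stabilises MYC, had 1896 and 1818 in FOXC1 cells and 2665 and 2677 in vector cells (log2 -0.52 ± 0.04 SE). None of these 5 had overlapping groups, and NNMT, the farthest of them, was at -0.48 relative to the median of the members.

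Of 8 adhesion and surface members MPZL2, MCAM and NECTIN1 were called lower and MPZL3 higher, against 15.5% and 15.9% of all genes. MPZL2 and MCAM had been set apart for the size of this difference, so nothing is read from the count. The neural adhesion molecule NCAM1 (log2 0.05), the adhesion molecule CADM1 (0.02), DSCAML1 (0.09) and the urothelial plaque protein UPK2 (0.05) were dim, with mean signals between 145 and 436, and were not called. CADM1 read 422 and 457 in FOXC1 cells and 439 and 426 in vector cells, which overlap.

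The counts by role that follow come from the contrast that chose the members, and they stand beside 15.5% of all genes called lower, or 23.3% of genes above the 50th percentile of signal. All but 2 of 11 members of the secretory pathway were called lower, with a group median of -0.27. Besides OAF, the largest difference was in VPS11, a core subunit of the HOPS and CORVET tethering complexes, at 1851 and 1810 in FOXC1 cells and 2430 and 2454 in vector cells. HYOU1, a chaperone of the endoplasmic reticulum, had 4711 and 4499 in FOXC1 cells and 5955 and 6041 in vector cells. SLC37A4, the glucose-6-phosphate transporter, had 2913 and 2736 in FOXC1 cells and 3531 and 3497 in vector cells. The 3 genes stood at 75.1%, 76.8% and 80.4% of vector, with no overlap between groups. The beta-secretase BACE1 (82.4%), the lipid transfer protein C2CD2L (83.1%), the proprotein convertase PCSK7 (85.1%), the coatomer subunit ARCN1 (85.8%) and DPAGT1 (89.0%), which starts the lipid-linked precursor of N-glycans, were also lower. The transport complex subunit TRAPPC4 (96.4%) and the dim sorting receptor SORL1 (104%) had overlapping groups.

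All 6 members of RNA metabolism and translation were called lower, against 15.5% of all genes, with a group median of -0.25. RBM7, the RNA-binding subunit of the nuclear exosome targeting complex, had 1465 and 1316 in FOXC1 cells and 2051 and 1840 in vector cells. REXO2, an oligoribonuclease of mitochondria, had 2826 and 2767 in FOXC1 cells and 3927 and 3870 in vector cells. These stood at 71.7% and 71.8% of vector. The splicing factor BUD13 (79.9%), the ribosomal protein RPS25 (88.4%), the zinc finger protein ZPR1 (88.7%) and the RNA helicase DDX6 (89.6%) differed less. RPS25 has 10 pseudogenes and SDHD has 7 in the gene table, so their probe sets may bind other transcripts. The second probe sets of RPS25 (log2 -0.22 beside -0.18) and SDHD (-0.21 beside -0.30) had the same sign as the ones used.

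Of 6 ubiquitin enzymes 5 were called lower, against 15.5% of all genes, with a group median of -0.36. Besides USP28, RNF26, CBL and UBE4A these included RNF214, at 1075 and 973 in FOXC1 cells and 1364 and 1320 in vector cells. The deubiquitinase USP2 was dim and not called, at 333 and 354 in FOXC1 cells and 403 and 371 in vector cells, although its groups do not overlap.

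Of 7 members with roles at cilia, spindle or microtubules 6 were called lower, against 15.5% of all genes, with a group median of -0.30. TBCEL, a tubulin cofactor E-like protein, had 2540 and 2487 in FOXC1 cells and 3283 and 3486 in vector cells. ZW10, a kinetochore protein of the spindle checkpoint, had 1628 and 1511 in FOXC1 cells and 2077 and 2032 in vector cells. TTC12, needed for the assembly of ciliary dynein arms, had 874 and 775 in FOXC1 cells and 1084 and 1079 in vector cells. The groups were apart in all 3, at 74.4% of vector for TBCEL and 76.5% for ZW10 and TTC12. PHLDB1 (81.5%), the centriole appendage protein CEP164 (83.5%) and the intraflagellar transport protein IFT46 (88.8%) were lower as well, and PIH1D2, at the end of the block, was dim and not called (103%). A second probe set that carries CEP164 together with the small nucleolar RNA SNORD42B was higher (log2 0.36), and it was not used.

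The remaining groups were mixed. Among 3 mitochondrial members SDHD, the membrane anchor of succinate dehydrogenase, was called lower, at 5196 and 5163 in FOXC1 cells and 6384 and 6340 in vector cells. The import chaperone TIMM8B (95.5% of vector) and the NOD-like protein NLRX1 (93.3%) were not called. Of 6 members of transcription and signalling 3 were called lower, SIK3, the beta-catenin coactivator BCL9L (76.8%) and the histone gene regulator HINFP (82.5%). TRIM29 (log2 0.19), ZBTB16 (0.06) and POU2F3 (0.02), transcription-linked genes of restricted expression, were dim and not called. Of 4 enzymes and carriers NNMT and PAFAH1B2, a catalytic subunit of platelet-activating factor acetylhydrolase, were called lower. PAFAH1B2 had 4866 and 4848 in FOXC1 cells and 6558 and 6371 in vector cells. The apolipoprotein gene APOA1 and the serine protease gene TMPRSS4 were both at 0.14 on the log2 scale and not called. The immune members CD3E, IL10RA and CXCR5 and the channel and inner ear genes SCN4B and TECTA had dim probe sets, with log2 differences between 0.04 and 0.23, and 0 of them were called.

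For comparison, 70 measured genes that encode partners of the members and lie outside the block were read in the same fit. The list holds subunits of the same complexes, but not these alone. It also holds related or interacting proteins, such as TIMM8A beside TIMM8B, BCL9 beside BCL9L and GRB2 beside CBL. Of these partners 15 were called lower and 13 higher, with a median log2 difference of -0.01, against 15.5% and 15.9% of all genes. Most partners were bright, with a median signal of 2295. Of all genes above the 50th percentile of signal 23.3% were called lower and 23.9% higher. With each array centred on its median the counts were 11 lower and 20 higher, against 13.8% and 20.4% of all genes. Without a variance trend they were 10 lower and 5 higher, against 9.72% and 7.93% of all genes. Fewer partners were called in either direction when either vector array was left out, and so were fewer of all genes. Of 13 members with at least 2 measured partners, 11 were called lower, and 8 of these 11 lay below all of their partners. ARCN1, IFT46 and DDX6, also called lower, did not. COPB2, a coatomer partner of ARCN1, fell as far (log2 -0.22 for both, limma adjusted p = 1.4e-05 for COPB2). ZW10 (log2 -0.39) stood beside ZWILCH, its partner in the kinetochore complex, which rose to 7155 and 7255 in FOXC1 cells, against 6300 and 6219 in vector cells (limma adjusted p = 4.47e-06). RBM7 (-0.48) stood beside ZCCHC8 (0.09) and the helicase MTREX (0.07), which did not pass. Among the small import chaperones of mitochondria, TIMM13, which pairs with TIMM8 proteins, and TIMM10, which pairs with TIMM9, rose by 0.24 and 0.23 on the log2 scale (limma adjusted p = 0.00258 and 0.000253), while TIMM8B was at -0.07. ATP1B1, the beta subunit of the sodium pump, had the largest rise among the partners (log2 0.26, limma adjusted p = 4.44e-07). It was listed as a partner of FXYD2, for which no value is given, so it stands beside no measured member. The largest falls were in intraflagellar transport genes, IFT80 (log2 -0.31, limma adjusted p = 3.03e-05), IFT81 (-0.27, 0.00782) and IFT52 (-0.25, 0.000212), beside -0.17 for IFT46. These differences between members and partners were not tested, since the members were chosen on the same contrast.

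**Figure D4:**
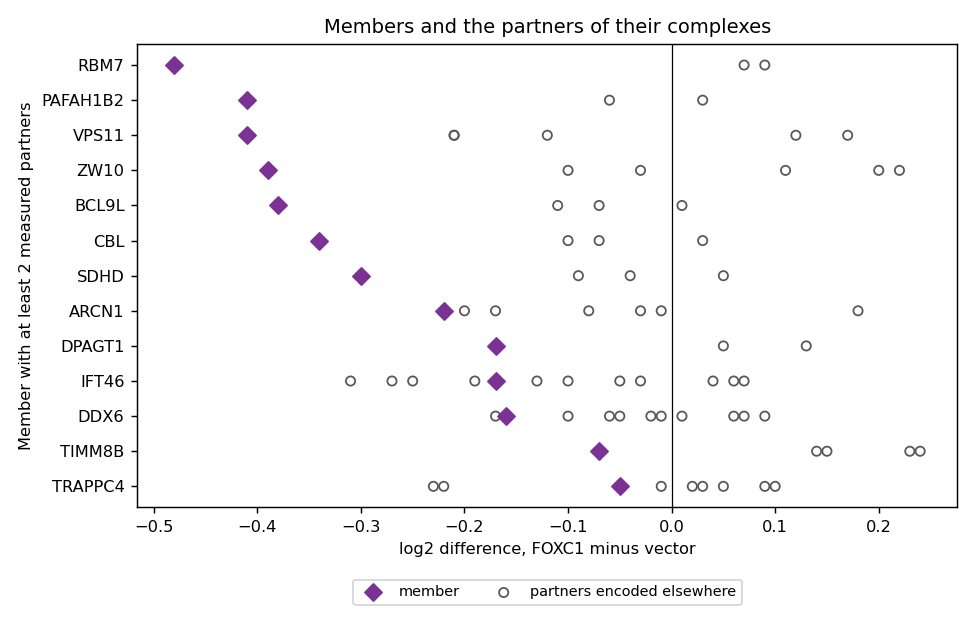
Log2 difference of FOXC1 minus vector (x) for the 13 members with at least 2 measured partners (diamonds) and for those partners (open circles). The partners are encoded outside the block, and not all of them are subunits of the same complex. The diamonds of RBM7, PAFAH1B2, VPS11, ZW10, BCL9L, CBL, SDHD and DPAGT1 lie left of all their circles, as does TIMM8B, which was not called. IFT46, DDX6 and TRAPPC4 lie among theirs, and ARCN1 is level with the lowest of its own.

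Immunoglobulin-type adhesion genes outside 11q were read for comparison with MPZL2, MCAM and NECTIN1. Of 32 measured, 12 were called lower and 4 higher, with a median log2 difference of -0.07, against the same 15.5% and 15.9% of all genes. The largest falls were in PECAM1, an adhesion molecule of endothelium and platelets, at 249 and 245 in FOXC1 cells and 719 and 914 in vector cells (log2 -1.65, limma adjusted p = 9.6e-12). ICAM2 followed at 536 and 626 in FOXC1 cells and 1400 and 1325 in vector cells (log2 -1.21, limma adjusted p = 1.17e-11). The neural adhesion gene L1CAM had 821 and 827 in FOXC1 cells and 1643 and 1677 in vector cells (50.1% of vector, limma adjusted p = 3.32e-12). NECTIN2, a family member of NECTIN1, also fell (log2 -0.37, limma adjusted p = 9.79e-08), while NECTIN3 (0.01) and NECTIN4 (0.11) were not called. The largest difference of the 32 was a rise of ICAM1, a leukocyte adhesion ligand, to 3234 and 3185 in FOXC1 cells, against 845 and 865 in vector cells (log2 1.89, limma adjusted p = 5.72e-18). PVR (log2 0.31), EMB (0.23) and NPTN (0.12) also rose. None of the 32 had a difference as low as that of MCAM or MPZL2. Those 2 had been set apart for the size of this difference, so nothing is read from that. PECAM1 is also an endothelial marker, and among 10 endothelial and fibroblast markers it and KDR were called lower and DCN higher. The summed signal of these 10 was 3748 and 3871 in FOXC1 cells and 4398 and 4612 in vector cells, and their part in the adhesion counts was not tested.

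The gene table places 43 other measured genes between PIH1D2 and SORL1, of which 11 (25.6%) were called lower and 3 (6.98%) higher, against 15.5% and 15.9% of all genes. They were dimmer than the members, with a median signal of 347 against 1374 for the members. Of the 14 above the 50th percentile of signal 9 were called lower, with a median of -0.23, against 23.3% of all genes in that range. The largest fall among the 43 was in the glutamate receptor gene GRIK4, at 707 and 714 in FOXC1 cells and 1043 and 1046 in vector cells (limma adjusted p = 2.65e-07). The higher ones were TAGLN (log2 0.89), an actin-binding protein, with limma adjusted p = 3.92e-07, TTC36 (0.22) and SC5D (0.22), an enzyme of cholesterol synthesis. IL18 itself had 1694 and 1648 in FOXC1 cells and 2008 and 1963 in vector cells, or 84.3% of vector.

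The ends of the block did not coincide with the ends of the low stretch. PIH1D2 (log2 0.05) and SORL1 (0.06) at its limits were dim and not called. The first measured genes beyond PIH1D2 were DLAT, a subunit of pyruvate dehydrogenase, with 2937 and 2809 in FOXC1 cells and 3916 and 3733 in vector cells (log2 -0.41), and DIXDC1 (log2 -0.50). Those beyond SORL1 were MIR125B1 (-0.05) and BLID (-0.21). Of the 25 measured genes before PIH1D2 13 were lower, and of the 25 after SORL1 5 were, a share near the 15.5% of all genes. The lowest of these 50 were 2 microRNA genes after SORL1, MIRLET7A2 (log2 -0.84, limma adjusted p = 1.2e-07) and MIR100 (-0.80, 0.000138), followed by the hyaluronan receptor gene LAYN (-0.61, 1.05e-08). Both microRNA probe sets were dim. MIR100 read 31.4 and 28.6 in FOXC1 cells and 66.6 and 61.9 in vector cells, so the size of its difference depends on the offset of 16. Among all genes above the 50th percentile of signal 23.3% were called lower. Looking only at such genes, 76 of 430 were lower in the part of chromosome 11 that precedes DCUN1D5, with a median of 0.03. From DCUN1D5 to DLAT it was 17 of 21, with a median of -0.30, and within the block 41 of 49, also with -0.30. The 41 include 32 bright members, which this same contrast chose. In the 25 genes from MIR125B1 to OR10G7 just 5 were bright, and 2 of these were lower. From VWA5A to the last measured gene, B3GAT1, it was 23 of 27, with a median of -0.33. These stretches were drawn after the values had been seen. Genes at or below the 50th percentile had medians between 0.01 and 0.07 in all 5 stretches. In the same order, 29 of 546, 10 of 29, 5 of 50, 3 of 20 and 5 of 55 of them were called lower. The share over all genes in that range was 7.43%.

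**Figure D5:**
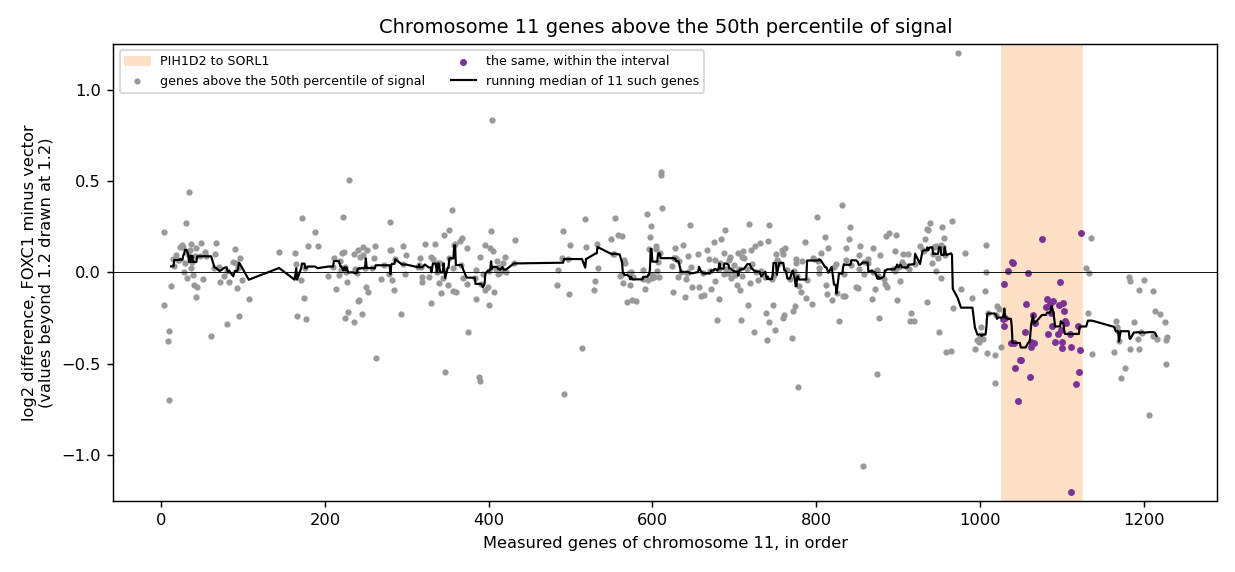
Measured genes of chromosome 11 in order along the chromosome (x) with their log2 difference of FOXC1 minus vector (y), for genes above the 50th percentile of signal. The shaded band runs from PIH1D2 to SORL1, its genes are purple, the line is a running median of 11 genes, and points beyond the plotted range, such as MCAM, are drawn at its edge. The line stays near 0 over most of the chromosome and lies below 0 in the band and on both sides of it. From MIR125B1 to OR10G7, next to SORL1, just 5 genes are bright, and their own median is -0.0. The window of 11 genes there also takes in genes of the band or genes farther on.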

How the data were processed

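The deposited table holds linear intensity values, which are PLIER gene signals at default settings per the labels, made from 100 ng of total RNA per sample. Affymetrix Expression Console is named per the submitters' processing notes. The sources used here say no more of normalization, and give no versions or genome build. An offset of 16 was added before log2, a level that 2.67% to 2.92% of the probe sets on an array did not reach. The table has 33297 probe sets, of which 12083 have no gene symbol, 19460 have 1 and 1754 have several.

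The 21214 probe sets with a symbol entered 1 fit across all arrays in limma 3.58.1 (R 4.3.3, eBayes with a trend, two-sided, 2 residual and 18.1 prior degrees of freedom), Benjamini-Hochberg adjusted at 0.05. The fit was checked on simulated data. Gene order came from a RefSeq gene table of GRCh38.p14. With 2 arrays per group, p-values and SE values rest on the spread between these arrays, which may not cover separate transfections. Both are moderated. With 18.1 prior against 2 residual degrees of freedom, most of the variance of a gene is borrowed from probe sets of similar signal. Arrays with the same replicate number did not deviate together (correlation -0.01 across probe sets).

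The members and lists were chosen with earlier results of these data known. The rule for named genes gives per-array values for members that differ by 0.5 or more, up to 4 examples for each role group, and up to 5 genes per list and direction that passed with the largest change. Neighbours of MPZL2 and MCAM, the other members with values, IL18, ZCCHC8 and MTREX were picked after values were seen. So were NECTIN2, NECTIN3 and NECTIN4. The motif TGACGTCA was picked after the sequence was seen. Lists covered partners of the members, adhesion genes and markers of the line, luminal cells, leukocytes, and endothelium with fibroblasts. Figures and summaries used Python 3.11.15.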

Additional observations from a re-analysis of the deposited data

How the results depend on the processing

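Offsets, signal filters, normalization, variance moderation, a replicate block, leaving out each array, averaging probe sets, fitting all rows and an adjusted p of 0.10 were tried, and none of the 35 members called lower changed sign. Members called lower numbered between 28 (no variance trend) and 36, and with the replicate block 35. The block, whose numbers do not pair the samples, gave 19 partners lower and 16 higher. The members' median was -0.32 above the 50th percentile of signal, where dim members are left out. The MPZL2 difference was -3.78 with an offset of 1 and -2.44 with 64, and it had no value under the signal filters. Partners called higher were 20 with median centring, 5 without a trend and 8 with all rows. Adhesion genes called higher were 2 without a trend. Without a trend 9.72% of all genes were called lower and 7.93% higher. With median centring these shares were 13.8% and 20.4%, and with all rows 11.7% and 10.1%.

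Leaving out each array in turn gave between 33 and 36 members lower, 0 and 2 higher, a median between -0.23 and -0.18, MPZL2 between -3.45 and -3.13 and MCAM between -2.64 and -2.47. Partners lower ranged between 8 and 18 and higher between 6 and 16, with 8 lower after either vector array was left out and 6 higher without vector replicate 2. The lone array of a group was then assumed to vary like the other group. Fewer of all genes were also called in either direction when either vector array was left out. PCSK7 and IFT46 lost their call without FOXC1 replicate 2 and without vector replicate 1, and CEP164 and DDX6 without vector replicate 2. Without a trend ZPR1, PCSK7, IFT46, DDX6, RPS25, DPAGT1 and HINFP lost it, and with all rows IFT46 and HINFP. Without IL18BP, an alternative chosen after seeing the data, 35 members were lower and the median was -0.23. The causes were not tested. What the low signal of dim probe sets can show was not tested.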
